A study of Mus musculus with 2 samples.

Results

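Alpha-1 antitrypsin and related serpins were examined in nuclei of mouse liver. The group holds 10 genes of serpin clade A, *Serpina1a*, *Serpina1b*, *Serpina1c*, *Serpina1d*, *Serpina1e*, *Serpina3k*, *Serpina3m*, *Serpina3n*, *Serpina6* and *Serpina12*, out of 32285 genes in the count tables. They were taken by gene symbol as family members, with the difference between the libraries already known, so their library ratios are given as a description. Single-nucleus RNA-seq was available as 2 libraries, 1 per genotype. The Flox-labelled library came from C57BL6/J mice of genotype *Themis* flox/flox, and the HKO-labelled library (hepatocyte knockout) from mice labelled *Themis* Alb-Cre, in which the albumin promoter drives Cre recombinase in hepatocytes. All mice were males and were given, from 10 to 12 weeks of age and for 5 months, a steatohepatitis-inducing diet with 2% cholesterol, 20 kcal% fructose and 40 kcal% fat. Per the study's methods, liver from 4 mice was pooled for each library, so mouse-to-mouse spread is not seen, and genotype and library cannot be told apart. No test between the libraries was possible. Each value carries an exact 95% interval (Poisson for a level, conditional binomial for a ratio, Clopper-Pearson for a share) that covers counting error only.

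Serpins are protease inhibitors that trap their target by a large change in shape after the protease cuts an exposed reactive centre loop. Alpha-1 antitrypsin, the product of the *Serpina1* genes, is secreted by hepatocytes and restrains neutrophil elastase. Humans have a single gene for it, whereas the mouse genome carries a cluster of near-identical copies. The *Serpina3* members include *Serpina3k*, which codes for a kallikrein-binding inhibitor, and *Serpina3n*, an acute phase gene related to antichymotrypsin. *Serpina6* codes for corticosteroid-binding globulin, the plasma carrier of glucocorticoids, and does not inhibit proteases. *Serpina12* codes for vaspin, a serpin first described in visceral fat.

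The 10 genes lay on chromosome 12 of GRCm38 in the GENCODE M21 annotation. *Serpina6* stood first at chr12:103646630-103657212, followed on the same minus strand by *Serpina1b* at chr12:103728156-103830373, *Serpina1d* at chr12:103763594-103773592, *Serpina1a* at chr12:103853589-103863562, *Serpina1c* at chr12:103894926-103904887, *Serpina1e* at chr12:103946931-103958975 and *Serpina12* at chr12:104028769-104044443. On the plus strand were *Serpina3k* at chr12:104338486-104346144, *Serpina3m* at chr12:104338486-104394257 and *Serpina3n* at chr12:104406729-104414329. *Serpina1d* lay inside the span of *Serpina1b* without sharing exonic bases, and *Serpina3k* and *Serpina3m* shared 60 exonic bases at their common start.

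The *Serpina1* coding sequences were between 96.3% and 98.5% identical over 1239 aligned bases in the 10 pairs. Over the last 500 bases of the transcript, where 3′ libraries place most reads, identity was between 94.2% and 96.4%. None of the 351 windows of 150 bases (about the length of a read) in those 500 bases was found unchanged in a transcript of another gene, for any of the 10 members. A full-length read without errors could therefore be placed, but a shorter or error-bearing one could be dropped or misassigned between paralogues, and levels of single *Serpina1* genes are uncertain to that extent. The 60 coding bases in which the 5 paralogues differed most, at 18 positions, are shown because they tell the copies apart. They lie in 1 exon and code for part of the reactive centre loop region. Capitals mark bases that differ from the one held by most paralogues, or positions with no single most common base.
Serpina1a, chr12:103853757-103853816, minus strand: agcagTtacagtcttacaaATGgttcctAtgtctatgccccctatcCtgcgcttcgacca
Serpina1b, chr12:103728324-103728383, minus strand: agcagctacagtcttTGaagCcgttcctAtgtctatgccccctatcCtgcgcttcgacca
Serpina1c, chr12:103895094-103895153, minus strand: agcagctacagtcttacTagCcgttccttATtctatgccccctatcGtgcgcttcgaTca
Serpina1d, chr12:103763762-103763821, minus strand: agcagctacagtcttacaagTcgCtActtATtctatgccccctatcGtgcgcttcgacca
Serpina1e, chr12:103947100-103947159, minus strand: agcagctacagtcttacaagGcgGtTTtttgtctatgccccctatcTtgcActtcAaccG
*Serpina1e* had 8 capitals in this stretch and the other paralogues 5 or 6 each.

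Promoter sequences (RefSeq, GRCm38.p6, 250 bases before the start) were at hand for 7 of the 10 members. Those of *Serpina1e* and *Serpina1b* were 98.0% identical over the 198 bases that aligned, with 4 mismatches, the highest identity among the 10 *Serpina1* pairs, and are shown because the ratio between the libraries, given below for each gene, was 0.0226 for one and 0.438 for the other. Capitals mark a run of 55 bases that was present in the promoters of all 5 *Serpina1* genes and in no other of 32851 promoters. The run ended 63 bases before the RefSeq start of *Serpina1e* and between 1 and 12 bases before the other 4 starts.
Serpina1e, chr12:103956898-103957147, minus strand: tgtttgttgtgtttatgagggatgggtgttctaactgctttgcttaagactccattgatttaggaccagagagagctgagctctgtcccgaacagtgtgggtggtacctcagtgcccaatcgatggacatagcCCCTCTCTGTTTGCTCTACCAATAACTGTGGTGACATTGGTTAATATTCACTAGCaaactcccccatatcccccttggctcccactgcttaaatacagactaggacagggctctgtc
Serpina1b, chr12:103738190-103738439, minus strand: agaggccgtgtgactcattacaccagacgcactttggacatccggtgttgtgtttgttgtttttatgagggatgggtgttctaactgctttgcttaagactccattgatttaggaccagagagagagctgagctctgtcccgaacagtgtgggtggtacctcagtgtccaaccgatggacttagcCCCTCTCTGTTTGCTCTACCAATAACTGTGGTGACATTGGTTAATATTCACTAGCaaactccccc
The spaced STAT5 motif TTCNNNGAA, on either strand in 7.02% of all promoters, was in none of the 7 windows.

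The Flox-labelled library held 9363 barcodes and 58171337 unique molecular identifiers (UMIs, each 1 captured RNA molecule), and the HKO-labelled library 10748 barcodes and 40475938 UMIs. After filters, 5672 Flox-labelled and 3973 HKO-labelled hepatocyte nuclei had at least 3000 UMIs, with medians of 7535 and 6151. These nuclei carried hepatocyte markers at high level in both libraries, with *Alb* (albumin) at 2082 and 1598 UMIs per 1000000 (CPM). *Themis* itself was at 162 CPM in the Flox-labelled library and 250 CPM in the HKO-labelled library, so the deletion was not visible in these 3′ counts, and the libraries are named by their labels throughout. The libraries shared 27 barcodes. *Serpina1e* had 0 UMIs in the 8 hepatocyte nuclei of the HKO-labelled library that carried a shared barcode.

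The 5 *Serpina1* genes were all lower in the HKO-labelled library, by between 2.28-fold and 44.2-fold. *Serpina1c* was the most abundant of them, at 677 CPM (669.5 to 685) in the Flox-labelled library and 275 CPM (269 to 281) in the HKO-labelled library, a ratio of 0.406 (0.396 to 0.417). *Serpina1b* stood at 581 and 255 CPM, a ratio of 0.438 (0.426 to 0.450). *Serpina1a* went from 372 to 163 CPM, with the same ratio of 0.438 (0.423 to 0.453). The intervals of *Serpina1a* and *Serpina1b* overlapped, and that of *Serpina1c* lay below both. *Serpina1d*, the least abundant copy in the Flox-labelled library, had 170 and 62.5 CPM, for a ratio of 0.368 (0.349 to 0.388). *Serpina1e* stood apart. It was at 339 CPM (334 to 345) in the Flox-labelled library, from 15590 UMIs, and at 7.68 CPM (6.66 to 8.80) in the HKO-labelled library, from 204 UMIs, a ratio of 0.0226 (0.0196 to 0.0260). Its level was close to that of *Serpina1a* in the first library and the lowest of all 10 members in the second.

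The *Serpina3* members differed among themselves. *Serpina3k* had the highest level of the 10 genes in both libraries, 710 CPM in the Flox-labelled library and 495 CPM in the HKO-labelled library, a ratio of 0.698 (0.684 to 0.712). *Serpina3m* had 104 and 83.0 CPM, for a ratio of 0.80 (0.760 to 0.841). *Serpina3n* had 92.5 and 35.3 CPM, with a ratio of 0.381 (0.355 to 0.410), which is within the range of the *Serpina1* genes other than *Serpina1e*. *Serpina6* was the single member with a higher level in the HKO-labelled library, 34.0 CPM against 24.1 CPM, a ratio of 1.41 (1.29 to 1.54). *Serpina12* was at 23.2 CPM in the Flox-labelled library and 21.8 CPM in the HKO-labelled library, and the interval of its ratio of 0.941, from 0.849 to 1.04, held 1. Since 3′ UMIs count 1 tag per molecule, no length correction was made. Reads dropped or misassigned between near-identical paralogues would still affect a comparison of levels between genes, and this was not checked.

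**Figure D1:**
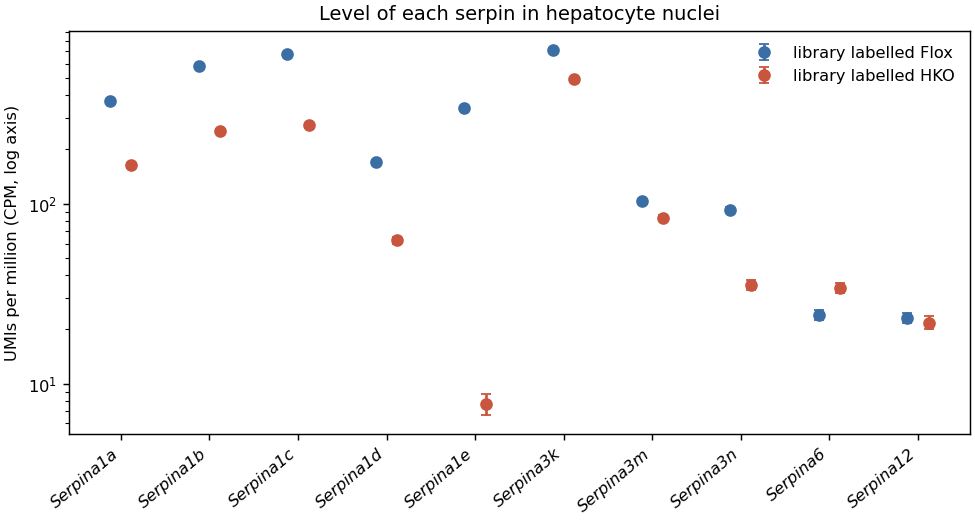
Level of each serpin in hepatocyte nuclei of the 2 libraries, in CPM on a log axis, with exact 95% Poisson intervals (counting error only, often smaller than the points). The *Serpina1e* points, at 339 and 7.68 CPM, are the widest apart, and *Serpina6* is the gene with the HKO-labelled point on top.

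At a threshold of 1.5-fold on log2(CPM + 1), 6 of the 10 members were lower in the HKO-labelled library, against 8.21% of the 11212 genes with at least 200 UMIs over both libraries, and 0 were higher, against 6.32%. All 10 members had at least 200 UMIs. Of the members 9 had a log2 ratio below 0, as did 51.8% of all genes. With the members chosen on this contrast, nothing is read from these counts. The median log2 ratio of the members was −1.19, and that of all 11212 genes was −0.02, with quartiles at −0.27 and 0.22. On the lower side, the nearest member inside the threshold was *Serpina3k*, at −0.52, and the nearest beyond it was *Serpina1a*, at −1.19. On the upper side the nearest was *Serpina6*, at 0.48 inside the threshold. *Serpina1e*, at −5.29, had the 4th lowest log2 ratio of all 11212 genes, a position held by 0.0357% of them.

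**Figure D2:**
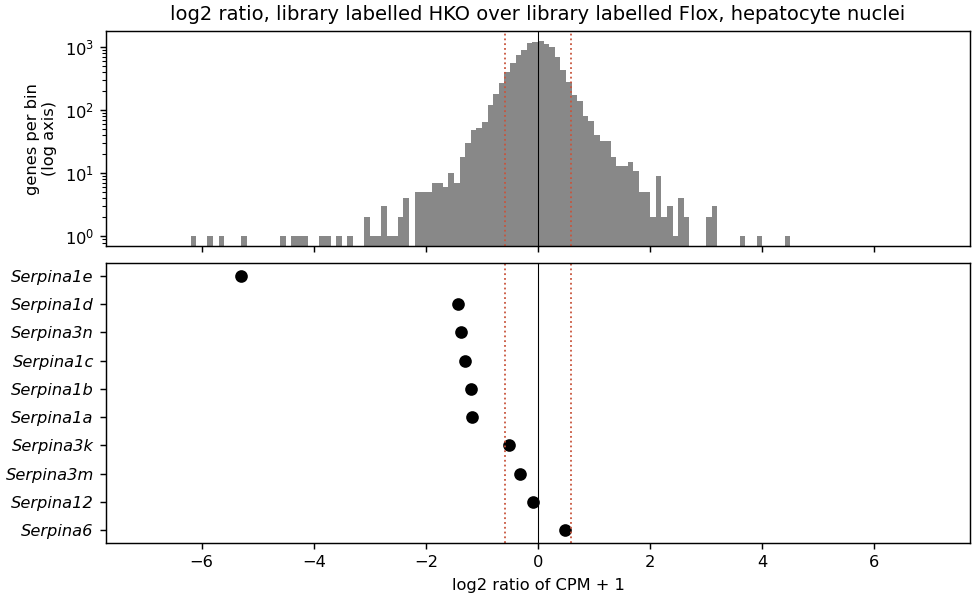
Upper panel, number of genes per bin of 0.1 in log2 ratio (HKO-labelled library over Flox-labelled library, log axis) for the 11212 genes with at least 200 UMIs. Lower panel, the log2 ratio of each member, with dotted lines at 1.5-fold in each direction. *Serpina1e* sits at −5.29, in the sparse lower end, and the other 5 members past the lower line sit between −1.43 and −1.19.

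Summed over the 5 paralogues, *Serpina1* RNA fell from 2140 to 763 CPM, a ratio of 0.356 (0.351 to 0.362). Without *Serpina1e* the sum was 1800 CPM in the Flox-labelled library and 755 CPM in the HKO-labelled library, a ratio of 0.419 (0.413 to 0.426). The make-up of the *Serpina1* pool differed accordingly. *Serpina1e* made up 15.9% of its UMIs in the Flox-labelled library (15.6% to 16.1%) and 1.01% in the HKO-labelled library (0.874% to 1.15%). The shares of *Serpina1c* were 31.6% and 36.1%, those of *Serpina1b* 27.2% and 33.4%, those of *Serpina1a* 17.4% and 21.4%, and those of *Serpina1d* 7.94% and 8.20%. Among the *Serpina3* members, *Serpina3k* held 78.3% of UMIs in the Flox-labelled library and 80.7% in the HKO-labelled library, and *Serpina3n* 10.2% and 5.75%.

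To set nuclei of unequal depth side by side, each hepatocyte nucleus was thinned at random to 3000 UMIs. *Serpina1e* was then seen in 39.8% of nuclei of the Flox-labelled library (38.5% to 41.1%) and in 1.96% of those of the HKO-labelled library (1.55% to 2.44%). Before thinning the shares were 54.0% and 2.92%. For *Serpina1c* the thinned shares were 81.3% and 48.6%, for *Serpina1b* 79.1% and 50.9%, for *Serpina1a* 64.3% and 35.4%, and for *Serpina1d* 39.1% and 17.7%. *Serpina3k* was found in 83.1% and 65.3% of nuclei, *Serpina3m* in 25.8% and 20.9%, and *Serpina3n* in 22.2% and 8.91%. The shares of *Serpina6* were 6.86% and 9.21%. *Serpina12* was found in 6.42% of nuclei in both.

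*Serpina1e* was the member most unevenly spread over nuclei. In the Flox-labelled library its UMI count per thinned nucleus had a variance 3.63 times its mean, whereas this ratio was between 1.04 and 1.73 for the other 9 members. As deposited, 2611 of 5672 nuclei of the Flox-labelled library had 0 *Serpina1e* UMIs while 500 nuclei had 10 or more, up to 50 in a nucleus, and those 500 held 46.9% of its UMIs. In the HKO-labelled library, 3857 of 3973 nuclei had 0, 78 had 1, 19 had 2 and 19 had 3 or more, with a highest count of 12. The 19 nuclei with 3 or more held 88 of the 204 UMIs, and 18 of these 19 were in a single one of the 3 hepatocyte clusters. The leading genes of that cluster included *Hc*, *Pck1* and *Uroc1*, while *Hsd3b3* and *Abcc2* were among those of all 3. In the Flox-labelled library, 1561 of the 1732 nuclei with 3 or more *Serpina1e* UMIs were in that cluster. The same cluster held 326 of the 2611 Flox-labelled nuclei with 0 and 1332 of the 3857 HKO-labelled nuclei with 0. Serpin genes were not among the features used for clustering.

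Position along the liver lobule was scored for each hepatocyte nucleus from fixed marker genes of zone 1 (periportal) and zone 3 (pericentral), and nuclei of each library were cut into a portal, a middle and a central tercile of equal size. Genes kept out of the score followed it. *Arg1*, a urea cycle enzyme of zone 1, was 6.17-fold higher in the portal than in the central tercile of the Flox-labelled library and 6.41-fold in the HKO-labelled library, and *Cyp7a1*, the rate-limiting enzyme of bile acid synthesis, stood at 342 and 909 CPM in the portal and central terciles of the first and at 813 and 1578 CPM in those of the second. The score is a continuous range, with 807 of 5672 and 558 of 3973 nuclei within 0.1 SD of a boundary.

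*Serpina1e* was highest in the portal tercile of both libraries. Flox-labelled nuclei had 737 CPM in the portal tercile, 244 CPM in the middle and 57.5 CPM in the central tercile, a portal over central ratio of 12.8 (12.0 to 13.8). The 3 levels of the HKO-labelled library were 17.2, 3.28 and 1.57 CPM, with a ratio of 11 (6.23 to 21.0). The 2 intervals overlapped, and the library ratio was 0.0233 (0.0198 to 0.0272) in the portal tercile and 0.0272 (0.0144 to 0.0468) in the central one. Its level in portal nuclei of the HKO-labelled library was thus below that in central nuclei of the Flox-labelled library. In the HKO-labelled library, its middle and central levels were near those of endothelial, hepatic stellate cell and macrophage nuclei, 3.13, 2.23 and 2.98 CPM. The part of free hepatocyte RNA in the portal over central ratio there was not tested. By decile of the score, the level in the Flox-labelled library stayed between 619 and 758 CPM over the 4 most portal deciles, was 268 CPM in the 5th and 99.0 CPM in the 6th, and reached 42.6 CPM at the central end. *Serpina1a* stepped down over the same deciles, from 462 CPM in the 4th to 349 CPM in the 5th and 290.5 CPM in the 6th, and so did *Serpina3n*, from 147 to 98.1 and 68.0 CPM.

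**Figure D3:**
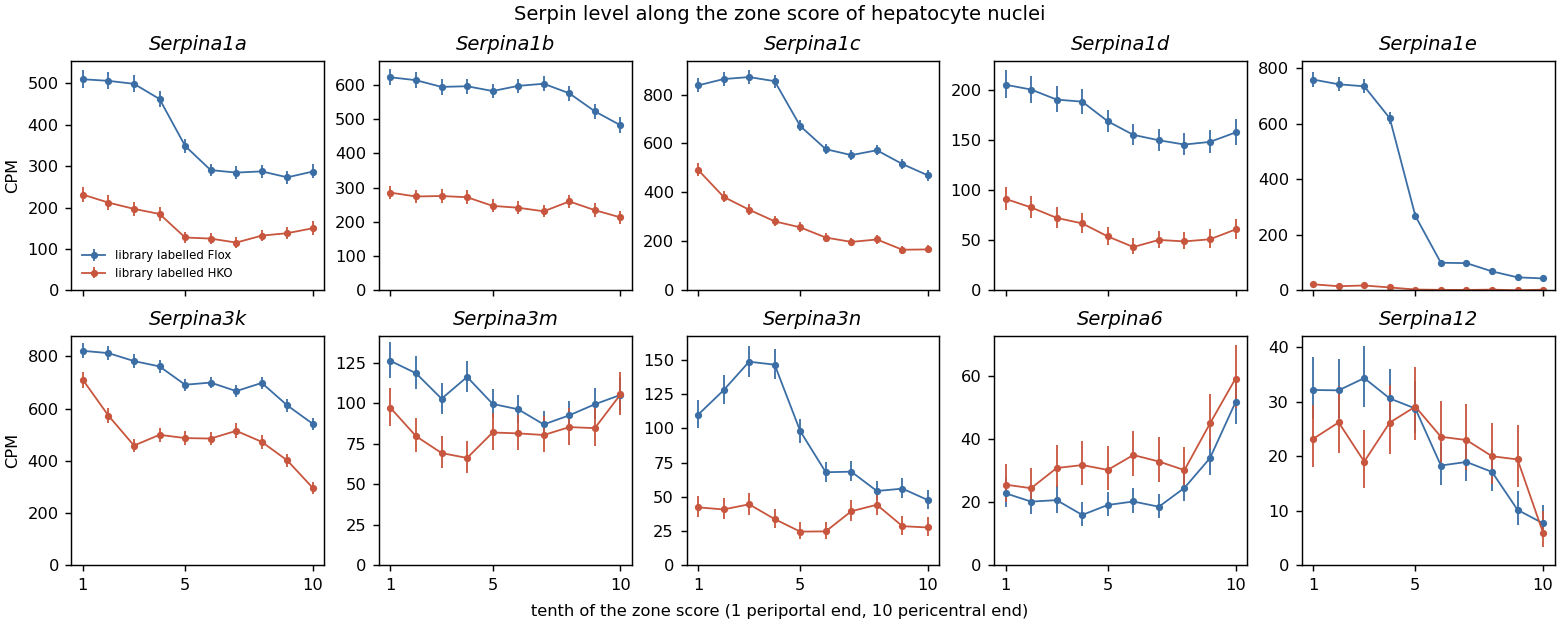
CPM of each member by decile of the zone score within each library (1 at the periportal end, 10 at the pericentral end), with exact 95% Poisson intervals. The *Serpina1e* level of the Flox-labelled library drops from 619 CPM in decile 4 to 99.0 CPM in decile 6, the *Serpina1b* profile is the flattest of the *Serpina1* genes, and *Serpina6* is highest at the pericentral end in both libraries.

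The other *Serpina1* genes showed shallower gradients. The portal over central ratio in the libraries labelled Flox and HKO was 1.77 and 1.53 for *Serpina1a*, 1.63 and 2.13 for *Serpina1c*, 1.32 and 1.49 for *Serpina1d*, and 1.13 and 1.18 for *Serpina1b*. For *Serpina1c* the gradient was steeper in the HKO-labelled library, with intervals (1.58 to 1.67 and 2.01 to 2.26) that did not overlap. For *Serpina3n* it was shallower there, 2.43 (2.23 to 2.64) against 1.21 (1.03 to 1.41), as its level was 0.314 of that of the Flox-labelled library in the portal tercile and 0.632 in the central one. *Serpina3k* ratios were 1.27 and 1.42. *Serpina6* was the single member at least 1.5-fold higher in the central tercile, a call lost in both libraries with a minimum of 6000 UMIs per nucleus, at 20.9 and 33.5 CPM in the portal and central terciles of the Flox-labelled library and 26.5 and 43.2 CPM in those of the HKO-labelled library. *Serpina12* was a portal gene in the Flox-labelled library, with a ratio of 2.64 (2.22 to 3.14), and less so in the HKO-labelled library, with 1.43 (1.15 to 1.79).

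In all, 5 members were at least 1.5-fold higher in the portal than in the central tercile of the Flox-labelled library, where 8.31% of genes were, and 3 in the HKO-labelled library, where 5.22% were. The second count was 5 with boundaries set over both libraries pooled or after thinning, and 6 with 4 parts in place of terciles. In the other direction the count was 1 in each library, against 7.47% and 6.6% of genes. The 3 in the HKO-labelled library were *Serpina1a*, *Serpina1c* and *Serpina1e*. The share of nuclei with a UMI after thinning gave the same picture for *Serpina1e*, with 73.1%, 31.9% and 14.4% of nuclei in the portal, middle and central terciles of the Flox-labelled library and 4.31%, 0.981% and 0.604% in those of the HKO-labelled library. *Serpina1a*, *Serpina1b*, *Serpina1c* and *Serpina3k* were in a majority of nuclei of every tercile of the Flox-labelled library.

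**Figure D4:**
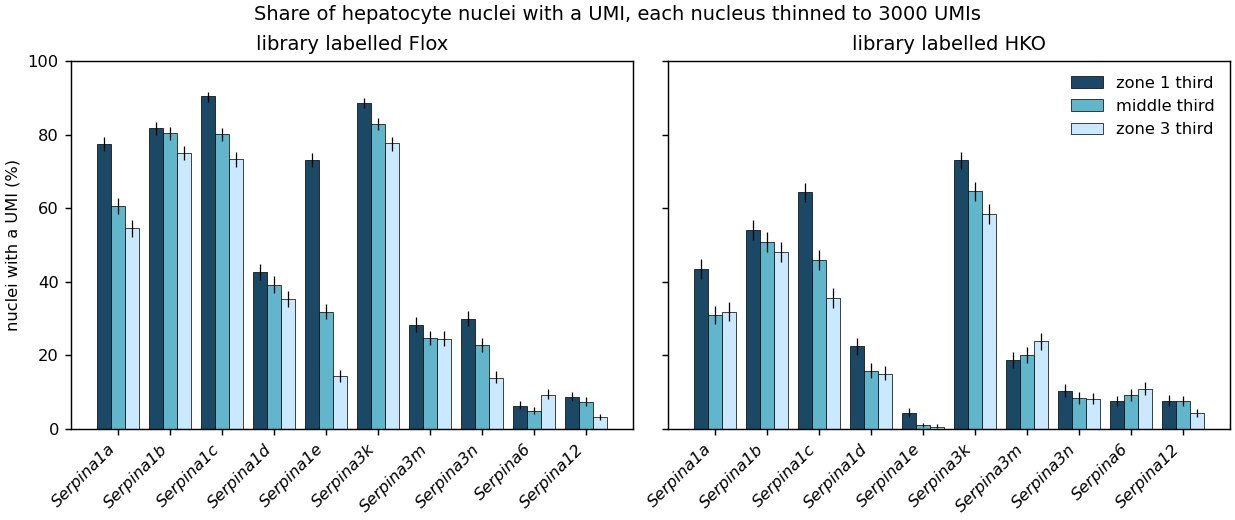
Percentage of hepatocyte nuclei with at least 1 UMI of each member, by tercile of the zone score (zone 1, middle and zone 3 in the legend), after thinning each nucleus to 3000 UMIs. Error bars are exact 95% Clopper-Pearson intervals. *Serpina1e* goes from 73.1% to 14.4% across the terciles of the Flox-labelled library and does not exceed 4.31% in the HKO-labelled library.

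The major urinary protein (*Mup*) genes, male-predominant pheromone carriers, also differed between the libraries. *Serpina1e* was compared over nuclei in the same range of summed *Mup* UMIs after thinning. Ratios of single *Mup* genes differed, with 0.00952 for *Mup7* and 0.693 for *Mup20*, so equal sums need not hold the same genes. In the Flox-labelled library it averaged 1.09 UMIs in the 3454 nuclei with 5 to 19 *Mup* UMIs and 1.24 UMIs in the 1972 nuclei with 20 or more. In the HKO-labelled library the averages were 0.0290 UMIs in 1727 nuclei and 0.0278 UMIs in 72 nuclei. With 1 to 4 *Mup* UMIs, *Serpina1e* averaged 0.477 UMIs in 239 Flox-labelled nuclei and 0.0292 UMIs in 1852 HKO-labelled nuclei. With 0 *Mup* UMIs it had 1 UMI in 7 Flox-labelled nuclei and 9 UMIs in 322 HKO-labelled nuclei. Its Flox-labelled average was thus lower where *Mup* UMIs were fewer. The other 4 *Serpina1* genes together averaged 5.44 and 2.33 UMIs in the nuclei with 5 to 19 *Mup* UMIs of the libraries labelled Flox and HKO, and 6.11 and 5.79 UMIs in those with 20 or more. With 1 to 4 *Mup* UMIs they averaged 3.76 and 2.25 UMIs, and with 0 they averaged 2.29 and 2.02 UMIs. *Serpina1e* averaged less in the HKO-labelled library in each range, with 1 UMI behind the Flox-labelled value at 0 *Mup* UMIs. The sum of its paralogues was lower by more than 2-fold at 5 to 19 *Mup* UMIs and by less in the other ranges. Nuclei with 20 or more held 2 *Serpina1e* UMIs in the HKO-labelled library, in 72 nuclei that make up 1.81% of its hepatocyte nuclei. The nuclei are cells of 1 library each, picked on a measured level, and are no replicates.

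Members were also counted in nuclei of other cell types, where free hepatocyte RNA can give UMIs. In endothelial, hepatic stellate cell (HSC) and macrophage nuclei, 16 hepatocyte-secreted or metabolic reference genes stood at a median of between 0.259 and 0.399 of their hepatocyte level. *Serpina1e* was at 89.6, 71.4 and 78.7 CPM in endothelial, HSC and macrophage nuclei of the Flox-labelled library, 0.264, 0.210 and 0.232 of its hepatocyte level, and was below the reference median in each. Its HKO-labelled values were 3.13, 2.23 and 2.98 CPM, from 4, 4 and 6 UMIs. No member reached 2 times the reference median in these 3 types in either library, so by this mark their signal was not told apart from free RNA. Own expression below the mark was not tested. The relative level of *Serpina3n* in HSC nuclei was 0.201 times the reference median in the Flox-labelled library and 1.11 times in the HKO-labelled library, from 8 and 20 UMIs. Elsewhere that mark was passed in proliferating nuclei of the HKO-labelled library by *Serpina1e*, on 1 UMI, and by *Serpina12*, on 3 UMIs. After thinning to 1000 UMIs, *Serpina1e* was in 22.9% of hepatocyte nuclei of the Flox-labelled library and in 7.87% of endothelial nuclei, with median depths before thinning of 7535 and 1313 UMIs.

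The ratio between the libraries in nuclei of these other types was read beside that in hepatocyte nuclei. For *Serpina1e* it was 0.0350 (0.00935 to 0.0924) in endothelial, 0.0313 in HSC and 0.0379 in macrophage nuclei, and the interval of each held the hepatocyte value of 0.0226. For *Serpina3k* it was 0.301 (0.236 to 0.382), 0.313 (0.247 to 0.393) and 0.413 (0.332 to 0.512), each below the 0.698 of hepatocyte nuclei. *Alb* showed a smaller gap, with 0.665, 0.572 and 0.593 against 0.767. *Serpina3n*, with between 8 and 20 UMIs per type and library, had a ratio of 0.875 (0.387 to 1.98) in endothelial, 2.19 (0.924 to 5.75) in HSC and 0.563 (0.202 to 1.54) in macrophage nuclei. The HSC interval lay above that of hepatocyte nuclei, 0.355 to 0.410. The endothelial interval overlapped that of hepatocyte nuclei but did not hold their value of 0.381, and the macrophage interval held it.

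**Figure D5:**
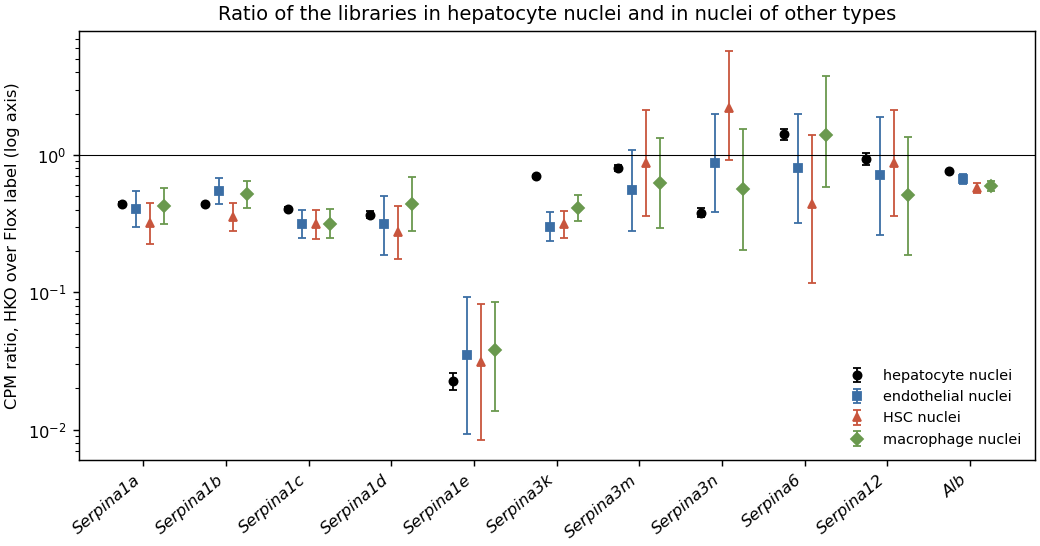
CPM ratio of the HKO-labelled library over the Flox-labelled library for each member and for *Alb*, on a log axis, in hepatocyte nuclei and in endothelial, hepatic stellate cell (HSC) and macrophage nuclei, with exact 95% intervals. *Serpina1e* lies between 0.0226 and 0.0379 in all 4 types, and *Serpina3k* lies at 0.698 in hepatocyte nuclei and between 0.301 and 0.413 in the others.

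Depth moved with part of these ratios. *Serpina3k* had a ratio of 0.407 in hepatocyte nuclei with 2000 to 3000 UMIs, just under the minimum, 0.521 with 3000 to 4000, 0.615 with 4000 to 6000, 0.696 with 6000 to 10000 and 0.792 above. *Serpina6* went from 0.992 through 1.09, 1.27 and 1.33 to 1.40 over the same bins. Its ratio of 1.41 over all hepatocyte nuclei used was above that of each of these bins. The *Serpina3k* ratio was below 1 in each of these 5 bins, and its size varied. From 2000 UMIs up, *Serpina1e* stayed between 0.0187 and 0.0562, and *Serpina1a*, *Serpina1b*, *Serpina1c* and *Serpina1d* between 0.335 and 0.494. Shallower nuclei were few. With 1000 to 2000 UMIs there were 40 Flox-labelled and 169 HKO-labelled nuclei, in which *Serpina3k* was at 0.235 (0.184 to 0.302), *Serpina1a* at 0.245 (0.169 to 0.355) and *Serpina1e* at 0.0312. With 500 to 1000 UMIs there were 19 and 48, in which *Serpina3k* stood at 0.666 (0.393 to 1.15), off the order of the deeper bins, *Serpina1b* at 0.690 (0.418 to 1.16) and *Serpina1d* at 1.25 (0.437 to 4.36). The part of depth in the *Serpina3k* and *Serpina6* ratios was not tested.

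Other genes of the pathway were read from lists, beside the 8.21% of all genes that were lower past 1.5-fold and the 6.32% that were higher. Of 13 further clade A serpins in the table, 3 had at least 200 UMIs. *Serpina7* (thyroxine-binding globulin) was higher in the HKO-labelled library, at 37.7 against 19.5 CPM, and *Serpina10* (protein Z-dependent inhibitor) and *Serpina11* were lower, with log2 ratios of −0.71 and −0.75. Of 10 measured serpins of other clades, 2 were higher and 4 lower past 1.5-fold. *Serpine2*, with a ratio of 0.246, and *Serping1* (C1 inhibitor), with 0.466, were the lowest. Among 6 measured target proteases, 2 were lower, *Plg* (plasminogen) at 0.550 and *F11* (coagulation factor XI) at 0.578, and 0 were higher, with *F2* (prothrombin) at 0.951.

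Of 17 genes of antitrypsin secretion and quality control, 5 were lower and 0 higher. The lowest were the chaperone *Calr*, at 127 and 63.7 CPM, and the disulfide isomerase *Pdia4*, at 77.8 and 40.5 CPM, and *Man1b1*, a mannosidase that trims misfolded glycoproteins, had the highest ratio, 1.27. Of 17 measured regulators of serpin genes, 2 were lower, among them *Bcl6* with a ratio of 0.581, a share near that of all genes, and 15 stayed within 1.5-fold, among them *Stat5a* at 1.26 and *Il6st* at 1.44. The median log2 ratio of that list was 0.04. On the glucocorticoid axis, 5 of 13 genes were higher and 2 lower. The glucocorticoid-induced *Fkbp5* rose from 88.2 to 256 CPM and *Zbtb16* from 32.2 to 87.7 CPM, while *Hsd11b1*, which regenerates active glucocorticoid, fell from 38.0 to 22.4 CPM.

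Acute phase genes were lower in 14 of 22 cases and higher in 0, with *Saa1* at 486 and 78.0 CPM, *Saa2* at 122 and 30.7 CPM and *Cp* (ceruloplasmin) at a ratio of 1.35. Of the 16 reference genes for free RNA, 7 were lower and 0 higher, with a median log2 ratio of −0.48. *Fgg*, at 0.337, had the lowest ratio of them and *Apoc3*, at 1.02, the highest. The fibrinogen genes *Fga*, *Fgb* and *Fgg* are in both lists. Male-biased liver genes were lower in 18 of 19 measured cases, with *Mup7* at a ratio of 0.00952 and *Mup11* at 0.0157, and *Mup20* at 0.693 was within 1.5-fold. Female-biased genes were higher in 10 of 10 measured cases, among them *Cyp2b9* from 4.96 to 72.8 CPM and *Cyp2a4* from 2 UMIs to 598. Of 21 listed female-biased genes, 10 had at least 200 UMIs, and some, such as *Cyp2a4*, only through the library where they were high. The same held for *Hsd3b5* of the male-biased list, with 605 Flox-labelled and 2 HKO-labelled UMIs. With lists also chosen on known results, nothing is read from the male-biased and female-biased counts. Both libraries carried Y-linked RNA and almost no *Xist*, with *Ddx3y* at 146 and 189 CPM and *Xist* at 1.15 and 2.18 CPM. The acute phase list holds *Serpina3n* and the male-biased list *Serpina1e*, and without these the counts of lower genes were 13 of 21 and 17 of 18. Genes of several lists thus also differed between the libraries, some lower and some higher, and their part in the members' ratios was not tested.

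The genes most like each member were named by Pearson's r of log2(CPM + 1) over 20 bins, the 10 deciles of the zone score in each library. The bins of a library share its depth and preparation, so r is a description. *Serpina1e* was most like *Serpina1a* (r = 0.984), *Hc* (complement C5, 0.983) and *Gm48633*. *Serpina1a* was most like *Serpina1e*, *Maml3* and *Pipox*, *Serpina1b* like *Mup3* (0.986), *Hes6* and *Mrps24*, *Serpina1c* like *Egfr* (0.981), *Serpina1e* and *Ido2*, and *Serpina1d* like *Aspdh* (0.981), *mt-Co1* and *Rtp3*. *Serpina3n* was most like the acute phase genes *Fga* (0.971) and *Saa1* (0.969), then *Serpina11*. *Serpina3k* was most like *C8a* (0.949), *Cyp2u1* and *Gm50136*, and *Serpina3m* like *Car5a* (0.919), *Slc25a13* and *Setdb2*. For *Serpina6* the nearest genes were *Srsf5* (0.939), *Nt5e* and *Vldlr*, and for *Serpina12* *Platr4* (0.952), *Ak4* and *Ccl9*. These ranks pool libraries whose means differ, and with each library centred on its own mean 4 of the 30 nearest genes were named again, *Car5a* for *Serpina3m*, *Srsf5* for *Serpina6*, and *Platr4* and *Ak4* for *Serpina12*. After centring, *Serpina1e* was most like *Sds* (0.963), a serine dehydratase, *Zbtb48* and *Bmp1*, *Serpina1a* like *Slc38a3* (0.972), *Serpina1b* like *Slc38a4* (0.912), *Serpina1c* like *Peli1* (0.964) and *Serpina3n* like *Cpb2* (0.946). *Sds* is a zone 1 marker of the score that sets the bins, so its likeness to a portal gene is in part built in.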

How the data were processed

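The authors deposited raw UMI counts per gene and nucleus from 10x Genomics Chromium 3′ libraries of sorted liver nuclei. Per the labels, reads were counted with Cell Ranger 8.0.1 against GRCm38, with intronic reads left out per the study's methods. Counts were used as deposited, summed over nuclei and scaled to UMIs per 1000000 (CPM) here. The members and gene lists were chosen with earlier results of these data known.

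Barcodes with under 300 genes and the highest-scoring Scrublet doublets (scanpy 1.11.5), 701 and 920 at a rate of 0.8% per 1000 barcodes, were removed. Nuclei were clustered with Seurat 5.3.0 (canonical correlation integration, 3000 features without serpin genes, 15 components, resolution 0.2). Clusters were named from fixed markers by a rule (at least 3 markers raised 1.5-fold) settled after they were seen. Hepatocyte nuclei needed at least 3000 UMIs, and genes at least 200 UMIs over both libraries. Ratios used a pseudocount of 1 CPM on the log2 scale where a log2 ratio is given, and none otherwise. Depth sets the intervals: 45940802 and 26578697 hepatocyte UMIs in the libraries labelled Flox and HKO. With 1 library per genotype there was no test. Tested on simulated data for this comparison, over 11212 genes, 98% of 2-fold higher and 96% of 2-fold lower genes were called. The simulated counts held counting noise only, with no spread between mice or libraries. Named genes were all members, the extremes of each list, and the 3 genes most like each member. Some genes of these lists are counted but not reported by name here. Transcripts were aligned with mafft 7.526. Alternatives covered the depth minimum, doublets, integration, scaling (with TMM factors of edgeR 4.0.16), thinning, weighting, pseudocount and zone boundaries. The UMI minimum of genes was not varied in a rerun, since every member passes it.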

Additional observations from a re-analysis of the deposited data

Results flagged for a closer look

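*Serpina12* went in opposite directions at the ends of the zone score. The HKO-labelled library was at 0.697 (0.591 to 0.820) of the Flox-labelled library in the portal tercile and at 1.28 (1.02 to 1.61) in the central one, and the difference was not tested. The interval of the central ratio held 1 under 5 of 6 alternatives (6000 UMIs, doublets kept, pooled boundaries, 4 parts and thinning), with 1.25 (0.963 to 1.62) at 6000 UMIs and 1.14 (0.896 to 1.45) with pooled boundaries. The interval of the portal ratio held 1 under 1 of 6, at 0.864 (0.670 to 1.11) after thinning. *Serpina3m* was higher in the portal than in the central tercile of the Flox-labelled library, with a ratio of 1.18 (1.10 to 1.27), and lower in that of the HKO-labelled library, with 0.893 (0.806 to 0.989), again without a test of the difference. The interval of the second ratio held 1 under 4 of 6 alternatives (6000 UMIs, pooled boundaries, 4 parts and zone markers without *Cyp* genes), with 0.976 (0.861 to 1.11) at 6000 UMIs, and did not with doublets kept or after thinning, where it was 0.753 (0.643 to 0.880). These 2 genes were found by looking over all 10 members, and intervals cover counting error only.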

How the results depend on the processing

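No paired analysis was possible because each genotype had 1 library, and no library could be left out. The count of members at least 1.5-fold lower in the HKO-labelled library was 6 under all rerun alternatives except thinning, where *Serpina3k* passed and it was 7. The count of higher members was 0 under every rerun alternative. The median log2 ratio of the members moved from −1.19 to −1.25 at 6000 UMIs. The log2 ratio of summed *Serpina1* moved from −1.49 to −1.46 at 1000 UMIs and −1.51 at 6000 UMIs. At 6000 UMIs 0 members were at least 1.5-fold higher in the central tercile of either library, as *Serpina6* fell short at 0.47 and 0.56 on the log2 scale. The 3 members higher in the portal tercile of the HKO-labelled library became 5 with boundaries set over both libraries pooled, 6 with 4 parts in place of terciles and 5 after thinning, where *Serpina1d* and *Serpina12* passed in each. The causes were not tested. No alternative that was rerun moved the median of all genes by over 0.1. The log2 ratio of *Serpina1e* ranged from −5.43 to −4.30, the latter with a pseudocount of 10 CPM, which moves the log2 ratio of a low gene toward 0 by construction, and that of *Serpina12*, uncalled, from −0.15 to 0.05. Depth limits *Serpina1e* in the HKO-labelled library, whose central tercile held 13 UMIs.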
